A study of Mus musculus with 72 samples.

Results

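The Rspo3 Foxa1 Adgrl2 set is a group of 90 Pet1-lineage neurons of the mouse dorsal raphe, in a 10X Genomics droplet table that holds 2260 other cells. They were chosen by the measured levels of 7 genes. Each cell was scaled to 10000 transcripts and log-transformed, Rspo3, Fam210b, Proser2, Adgrl2, Mctp1, Foxa1 and Pvrl3 were converted to z-scores over all cells, and the 90 cells with the highest mean z were the members. These 7 genes chose the cells, so their levels are no result and they stay out of every count below. The study asked how many molecular subtypes of Pet1 neuron the dorsal raphe holds and where each of them lies.

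The droplet cells came from 2 runs. One used Pet1::Flpe+/-; hM3Dq+/+ mice (mean age postnatal day 65.5), in which Flpe alone switches EGFP on. The other used En1::cre+/-;Pet1::Flpe+/-;RC::FrePe+/- mice (mean age postnatal day 59), in which EGFP needs both recombinases and so marks cells with a history of En1 and Pet1 expression. All animals thus carried Pet1::Flpe, and the droplet cells were sorted by EGFP from the whole dorsal raphe. The table pools animals and runs without naming them. Its barcodes end in 1 or 2 (barcode set 1, 869 cells, and barcode set 2, 1481 cells) and no label ties an ending to a run, so the table is 1 sample. A further 70 cells were sorted by hand from dissected subregions of mice that carried Pet1::Flpe+/-, RC::FrePe+/- and a Sert, P2ry1, Npy2r or Crh cre driver. Their ages ran from postnatal day 63 to 90 for Sert::cre, 62 to 74 for P2ry1::cre, 77 to 87 for Npy2r::cre and 83 to 119 for Crh::cre. No animal is named for these cells either, so neither table allows a p-value. All intervals below are 95% intervals that cover counting error only, and cells are not replicates.

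Pet1, encoded by Fev, is the ETS transcription factor that switches on and maintains the genes for serotonin synthesis, vesicle loading and reuptake. Some serotonin neurons also carry VGLUT3, the vesicular glutamate transporter encoded by Slc17a8, and can release glutamate beside serotonin. Several of the choosing genes belong to signalling systems between cells. R-spondin 3 is a secreted ligand of the LGR receptors that protects Wnt receptors from the ubiquitin ligases ZNRF3 and RNF43. Adgrl2 encodes latrophilin-2, an adhesion receptor whose partners are teneurins, FLRT proteins and UNC5 receptors. Pvrl3 encodes nectin-3, which is tied to the actin cytoskeleton by afadin, and Foxa1 is a forkhead transcription factor.

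The score fell smoothly through the limit. The highest member had a score of 3.81, the median member 2.27, and the cells just inside and just outside the limit 1.81 and 1.80. The cell at rank 120 still had 1.56 and the cell at rank 300 had 0.57, against a median of -0.24 over all other cells. A UMI (a counted transcript molecule) of all 7 choosing genes was present in 67 members, of 6 genes in 21 and of 5 genes in 2, and 30 cells outside the set also had all 7. The limit is a point on a range of scores, not an edge between types.

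**Figure D1:**
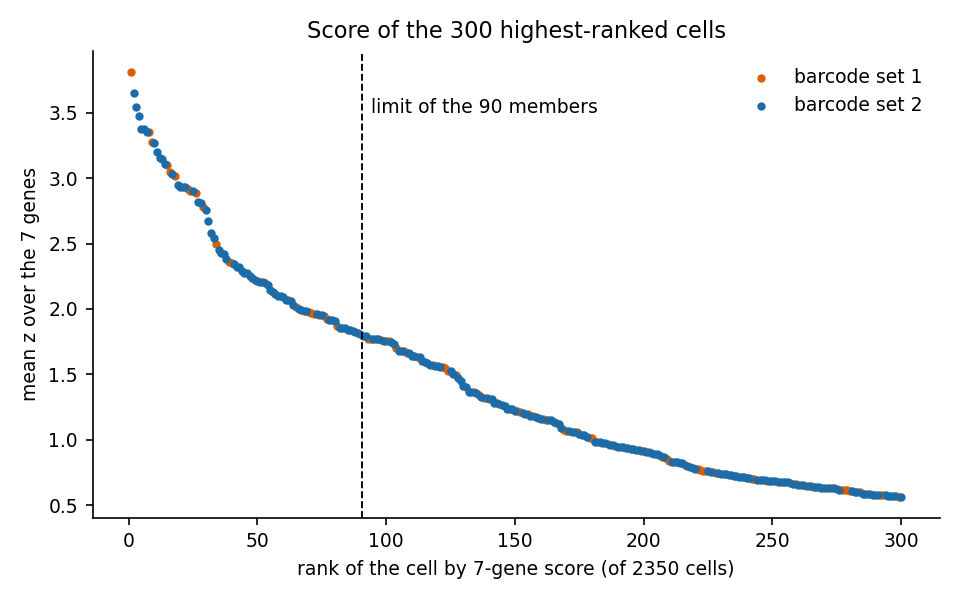
Mean z over the 7 choosing genes (y axis) against the rank of the cell (x axis) for the 300 highest cells, coloured by barcode set, with a dashed line at the limit of the set. Scores pass from 3.81 at rank 1 to 0.57 at rank 300 with no step at rank 90, where neighbouring cells have 1.81 and 1.80.

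The members made up 3.83% of all cells (exact binomial interval 3.09 to 4.69%). Barcode set 1 held 26 of them, or 2.99% of its cells (1.96 to 4.35%), and set 2 held 64, or 4.32% (3.34 to 5.49%). The intervals of both sets overlap. Members had a median of 63298 UMIs and 7829 genes per cell, and all other cells had 59550 and 7723. The median mitochondrial share was 7.26% in members and 6.37% in the others, which includes a difference between barcode sets (5.70% and 7.79% in members of sets 1 and 2, 5.21% and 7.07% in the others). No barcode was shared between the sets, and none of the 14 cells called doublets was a member.

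The members were serotonin neurons by their transcripts. Tph2, the rate-limiting enzyme of serotonin synthesis in neurons, was found in 90 of 90 members at 210 to 6881 CPM (counts scaled to the same total in every cell) with a median of 3552 CPM, and the median of the other cells was 2556 CPM. Slc6a4, the serotonin reuptake transporter, ranged from 865 to 3590 CPM over the members with a median of 2440 CPM, beside 2235 CPM in the other cells. Slc18a2, the vesicular monoamine transporter, had a median of 1938 CPM against 2343 CPM, and Fev a median of 257 CPM against 326 CPM. Every member thus held transcripts of all 4 genes, and their per-cell ranges lay within those of the other cells.

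Levels were then compared as the log2 ratio of summed CPM, members over the 2260 other cells. A gene was called higher or lower where the ratio was at least 2-fold over all cells and within each barcode set, among 11453 genes with at least 2 CPM over all cells. By this rule 74 genes (0.646% of those tested) were higher and 335 (2.92%) were lower. The median log2 ratio of all genes tested was -0.04, with 5th and 95th percentiles of -0.81 and 0.49. The minimum was taken over all cells, most of them not members, so it drops genes that are low in the other cells and keeps those that are low in the members. The number of higher calls is therefore not compared with that of lower calls. Since the same cells were used to choose the members and to measure these genes, the ratios describe the set and test nothing.

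Among the named genes with at least 100 observed or expected UMIs, the 4 largest ratios were those of Syt2, Tpbg, Vill and Ntng1. Syt2, the fast calcium sensor synaptotagmin-2, had 32.4 CPM in members and 3.37 CPM in other cells, a log2 ratio of 3.27 (3.01 to 3.52). Over the members it ranged from 0 to 204 CPM with a median of 20.7 CPM, and the median of the other cells was 0. Tpbg, a leucine-rich repeat glycoprotein of the cell surface, had 110 CPM against 16.3 CPM, a log2 ratio of 2.76 (2.62 to 2.89), with a range over members of 0 to 596 CPM and a median of 98.2 CPM. Ntng1 encodes netrin-G1, a membrane-anchored ligand that organises synapses, and had 141 CPM against 24.5 CPM, a log2 ratio of 2.52 (2.41 to 2.64). Its median over members was 110 CPM and its highest member had 681 CPM. In each of these 3 genes the ranges of members and other cells overlapped from 0 upward, and the medians stood apart.

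The shares of cells with these transcripts were also compared at equal depth. After every cell of at least 20000 UMIs was thinned to that number (89 members and 2208 other cells; 53 cells, 1 of them a member, were shallower), 42.7% of members and 5.53% of other cells kept a Syt2 UMI. Without thinning the shares were 65.6% and 10.3%. For Tpbg the thinned shares were 69.7% and 14.5% (78.9% and 19.5% without thinning), and for Ntng1 78.7% and 20.5% (84.4% and 30.1%). The table holds no cell type that should lack these genes, so a share from free RNA could not be measured in it.

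Slc17a8 was the most abundant of the leading genes. It had 513 CPM in members and 143 CPM in other cells, a log2 ratio of 1.84 (1.79 to 1.90), with 1.75 in barcode set 1 and 1.87 in set 2. A total of 89 of 90 members had a UMI of it, and their 10th percentile, median and maximum were 184, 518 and 1264 CPM. The other cells had a median of 33.2 CPM and a maximum of 1842 CPM. Nearly every member therefore held VGLUT3 transcripts, at a level that part of the remaining cells also reached.

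The remaining leading genes were Vill, a villin-like actin-binding protein, with a log2 ratio of 2.60, Fam163a with 2.34, Ano3, a member of the anoctamin family, with 2.32, and Sema3e, a secreted semaphorin, with 1.92. Pcdh7, a protocadherin, had 236 CPM against 66.2 CPM and was found in 90 of 90 members. Kcnj12, the inward rectifier potassium channel Kir2.2, had a log2 ratio of 1.81, Rbfox1, a neuronal splicing regulator, 1.79, and Iqgap2, a scaffold protein of the cytoskeleton, 1.79. Stxbp6, which binds SNARE proteins, had 1.75 and the choline transporter-like gene Slc44a5 1.66. Over these 14 genes the ratio within barcode set 1 lay between 1.29 (Stxbp6) and 3.21 (Syt2), and that within set 2 between 1.66 (Slc44a5) and 3.39 (Syt2).

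The 250 bases upstream of the annotated starts of these 14 leading genes were searched on both strands for the forkhead motifs TGTTTAC and TATTTAC and for the MAF half-site TGCTGAC, since Foxa1 is a choosing gene and Maf was called higher. The RefSeq promoter table (GRCm38.p6) held all 14 genes with 19 windows. A forkhead motif was present in 2 of the 19 windows, beside 5.76% of all 32851 windows, and both belong to Slc17a8. The MAF half-site was present in 2 windows, beside 3.81% of all windows, those of Kcnj12 and Slc44a5. No matches overlapped. The 4 windows with a match are printed 5′ to 3′ on the strand of the gene, in lower case with the match in capitals, because they are the windows of leading genes that hold one of these motifs. A match is a description of these letters and not a bound site. For Slc17a8 the windows lie on the minus strand at chr10:89621250-89621499 (start 1, match beginning 235 bases before the start) and chr10:89599816-89600065 (start 2, 151 bases), for Kcnj12 on the plus strand at chr11:61065554-61065803 (203 and 193 bases) and for Slc44a5 on the plus strand at chr3:153973186-153973435 (127 bases).
Slc17a8 start 1: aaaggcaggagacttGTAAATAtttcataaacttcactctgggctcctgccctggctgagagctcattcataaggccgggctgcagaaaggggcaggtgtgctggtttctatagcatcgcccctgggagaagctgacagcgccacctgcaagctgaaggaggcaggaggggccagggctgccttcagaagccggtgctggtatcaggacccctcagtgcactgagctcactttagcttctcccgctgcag
Slc17a8 start 2: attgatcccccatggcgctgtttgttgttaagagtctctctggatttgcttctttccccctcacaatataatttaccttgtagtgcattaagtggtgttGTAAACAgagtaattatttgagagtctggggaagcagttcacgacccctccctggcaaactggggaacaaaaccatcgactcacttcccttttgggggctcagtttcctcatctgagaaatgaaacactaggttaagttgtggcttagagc
Kcnj12: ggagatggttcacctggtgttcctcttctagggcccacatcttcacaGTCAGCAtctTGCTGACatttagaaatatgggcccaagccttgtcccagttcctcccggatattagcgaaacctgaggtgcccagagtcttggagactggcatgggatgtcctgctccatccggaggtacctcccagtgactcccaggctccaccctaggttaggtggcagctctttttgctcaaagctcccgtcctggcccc
Slc44a5: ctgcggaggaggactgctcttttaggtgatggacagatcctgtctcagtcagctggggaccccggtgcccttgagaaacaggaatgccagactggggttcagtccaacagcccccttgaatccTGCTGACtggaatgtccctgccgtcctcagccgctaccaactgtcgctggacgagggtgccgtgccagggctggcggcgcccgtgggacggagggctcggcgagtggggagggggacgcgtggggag

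The 11 leading lower genes were taken under the same minimum of UMIs. Arhgap36, which encodes a GTPase-activating protein, had 2.32 CPM in members and 112 CPM in other cells, a log2 ratio of -5.60 (-6.51 to -4.82). Prkcq, protein kinase C theta, had 1.42 CPM against 53.7 CPM, a log2 ratio of -5.24, with no UMI in members of barcode set 1. Prph, the intermediate filament peripherin, had 9.26 CPM against 111 CPM, and Asb4, an imprinted gene, 16.2 CPM against 182 CPM. The metabotropic glutamate receptor gene Grm5 had a log2 ratio of -3.79, the chemokine gene Cxcl14 -4.02 and the small heat shock gene Hspb1 -4.34. Sertm1 (-3.94), Aldh3b2 (-3.43), Zar1 (-3.37) and Fam19a2 (-3.16), which encodes a secreted protein, were the remaining 4 of the 11 leading lower genes.

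**Figure D2:**
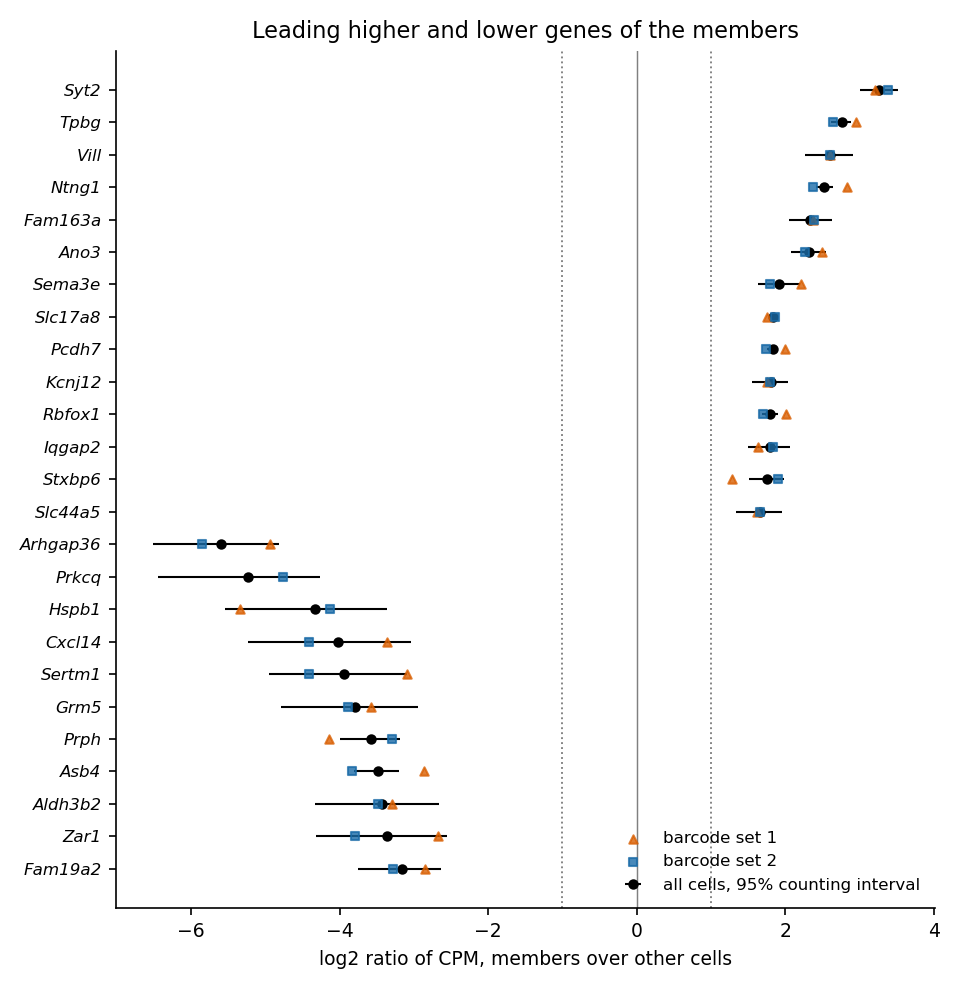
Log2 ratio of summed CPM, members over other cells (x axis), for the 14 leading higher and 11 leading lower genes (y axis); black points with bars are all cells with 95% counting intervals, triangles and squares the barcode sets, dotted lines the 2-fold limits. Both sets lie beyond the limit on the same side for each gene, from 3.27 for Syt2 to -5.60 for Arhgap36; Prkcq has no set 1 symbol because no UMI was counted there.

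Of 48 tested transcription factors of raphe subtypes, 2 were higher and 18 lower, beside 0.646% and 2.92% of all genes, with a median log2 ratio of -0.50. Among the higher ones was Maf, a basic leucine zipper factor, with 59.7 CPM against 24.6 CPM (log2 ratio 1.28). A Maf UMI was present in 57 of 90 members. Zeb2 had no UMI in the members, where the level of the other cells would have given 53, and it was at least 17.7-fold lower at a floor of 3 counts over the whole set. Nr2f1 and Irx2 were also without a UMI (at least 4.09-fold and 4.26-fold lower at the same floor), and Bcl11b had a log2 ratio of -4.28 (-6.15 to -2.92). Of 8 tested serotonergic identity factors and 14 genes of serotonin synthesis, transport and breakdown, 0 were called in either direction, where 0.646% of all genes were called higher and 2.92% lower, so that lists of this size would hold few calls at that rate. Their median log2 ratios were -0.06 and 0.00. Fev had 254 CPM against 339 CPM (log2 ratio -0.41) and En1 383 CPM against 344 CPM (0.16).

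Among transmitter genes, Slc17a8 was the single higher call of 10 tested genes of glutamate and GABA transmission, and 2 were lower, beside 0.646% and 2.92% of all genes. Of the lower calls, Slc1a2, a glutamate transporter, had a log2 ratio of -1.52. The GABA-synthesising enzymes were not called. Gad2 had 70.5 CPM against 115 CPM (log2 ratio -0.71) and Gad1 17.5 CPM against 49.1 CPM (-1.49). The Gad1 ratio was -0.21 in barcode set 1 and -2.41 in set 2. Only 13 of 90 members had a Gad1 UMI, and the highest of them, in set 1, had 544 CPM. Gad2 was detected in 39 members, and 38 of these also held Slc17a8.

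Of 25 tested genes for neuropeptides, their processing enzymes and nitric oxide synthesis, 0 were higher and 10 lower (median log2 ratio -0.71), beside 2.92% of all genes called lower. The summed level of the list was 7228 CPM in members and 7241 CPM in other cells. Penk, encoding enkephalins, had 1 UMI in all members (log2 ratio -4.99, -10.29 to -2.50), Trh had 3 UMIs (-4.83, -7.11 to -3.28) and Nts had 8 (-3.18). Tac1, the substance P precursor, had 0, which the floor places at least 4.96-fold lower. Crh had 6.05 CPM against 9.89 CPM (log2 ratio -0.71), with -3.49 in barcode set 1, -0.48 in set 2 and -2.35 over all cells without Proser2 in the score. Met, a receptor tyrosine kinase that marks other raphe neurons, had 1 UMI (log2 ratio -5.08, -10.39 to -2.60). Nos1, the neuronal nitric oxide synthase, was uneven. It had 61.6 CPM against 22.1 CPM over all cells (log2 ratio 1.48), but 1.77 in set 2 and 0.35 in set 1, and was not called. A Nos1 UMI was present in 35 members, and 32 of these also had a Maf UMI, while 25 members had Maf alone and 30 had neither.

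Receptor and channel genes are read beside 0.646% of all genes called higher and 2.92% called lower. Of 31 tested receptors for peptides, amines and hormones 1 was higher and 10 were lower, with a median log2 ratio of -0.14. The lower genes included P2ry1, a purinergic receptor (log2 ratio -3.66, 2 UMIs, -6.71 to -1.80), Tacr3, the neurokinin 3 receptor (-3.74, 1 UMI, -9.05 to -1.26), and Gpr101 (0 UMIs, at least 5.07-fold lower). Of 8 tested serotonin receptors, Htr2c (log2 ratio -3.36) and Htr1f (-2.27) were lower. Of 39 tested ionotropic and related receptor subunits 2 were higher and 6 lower. Grin2a, an NMDA receptor subunit, had 87.4 CPM against 34.0 CPM. The GABA-A receptor gene Gabrq had a log2 ratio of -1.85 and the AMPA receptor gene Gria3 -2.96 (3 UMIs, -5.24 to -1.40). The glycine receptor gene Glra3 had -1.68 (4 UMIs, -3.56 to -0.31, with no UMI in barcode set 1). Of 42 potassium channel genes tested 0 were higher and 5 lower (Kcna5, Kcng4, Kcnh8, Kcns1 and Kcns2, each under 2 CPM in members), in a list without Kcnj12. Fgf13, a regulator of sodium channels, was the only call among 48 calcium, sodium, HCN and TRP channel genes and their partners (28.9 CPM against 100 CPM). Hcrtr2, an orexin receptor, had 37.2 CPM against 24.8 CPM (log2 ratio 0.59).

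The counts of cell contact and release genes are given beside the same shares of all genes, 0.646% called higher and 2.92% lower. Most members of each list were not called. Cbln2, a secreted synapse organizer, had 128 CPM against 60.6 CPM (log2 ratio 1.07, but 0.86 in barcode set 1) and was not called. Of 54 tested synaptic adhesion and organizer genes 4 were higher (Nxph1, Ntng1, Gphn and Tpbg) and 3 lower, and the summed level of the list was 6851 CPM against 5533 CPM. Of 42 axon guidance genes 5 were higher and 4 lower. Epha5, an ephrin receptor, had 263 CPM against 103 CPM, Unc5c, a netrin receptor, 41.7 CPM against 16.8 CPM, and Sema3e 22.6 CPM against 5.96 CPM. Nrp2, a semaphorin co-receptor, had 1.25 CPM against 11.1 CPM, and Sema5a 2.85 CPM against 17.9 CPM. Of 29 cadherins and protocadherins 3 were higher and 4 lower, with Pcdh7 at a log2 ratio of 1.83 and Pcdh17 at -2.69. In the vesicle release list (49 tested) Syt2 was the single higher call and Cadps2 the single lower one (1 UMI, -3.72, -9.03 to -1.23). Of 25 heparan sulfate genes Ndst4 was higher (1.33), the sulfotransferase genes Hs3st1 (-3.04) and Hs3st4 (-1.31) were lower, and Hs3st5 had 27.2 CPM against 16.6 CPM.

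The known partners of the choosing genes were given by their own lists, since the proteins act in pairs between cells, and are likewise read beside 0.646% and 2.92% of all genes. Of 12 tested latrophilin partners, Unc5c was higher and Tenm2, a teneurin, was lower, with 18.9 CPM against 122 CPM (log2 ratio -2.70, -2.99 to -2.42). A Tenm2 UMI was present in 42 of 90 members and in 92.4% of other cells. Flrt1 had 19.4 CPM against 17.1 CPM, Flrt2 12.6 CPM against 23.5 CPM and Flrt3 19.9 CPM against 19.0 CPM, and none of the FLRT genes was called. Of 29 tested genes of the R-spondin and Wnt pathway, Dkk3 was higher (87.4 CPM against 36.6 CPM). Rspo1, another R-spondin (0.890 CPM against 8.24 CPM), and Wnt7b (3 UMIs, log2 ratio -1.97, -4.26 to -0.41) were lower. Lgr4, an R-spondin receptor, had 11.8 CPM against 6.02 CPM, a log2 ratio of 0.97 (0.58 to 1.33), and was not called. Lgr5 had no UMI in members and 0.639 CPM in other cells, a difference not detectable at this depth, and Znrf3 (1.42 CPM) and Rnf43 (0.534 CPM) were near that floor of 0.534 CPM. Of 6 tested nectin and afadin genes 0 were called, and afadin itself (Mllt4) had 73.4 CPM against 71.6 CPM.

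Of 29 tested genes in the list of imprinted genes 0 were higher and 3 lower. These were Asb4, Peg10 (28.1 CPM against 122 CPM) and Arhgap36, whose imprinting is not established. Of 24 calcium-binding protein genes 4 were lower, S100b and the copines Cpne2, Cpne4 and Cpne5. Of 20 immediate early and stress genes 3 were lower, Hspb1, Hspa1b and Nr4a3 (4 UMIs, -3.83 to -0.58). The list summed to 862 CPM against 995 CPM. The share of all genes called lower was 2.92%. The summed level of 19 vessel, blood and microglial markers was 1.42 CPM in members and 8.70 CPM in other cells, with 15 of the 19 at 0 in members. Glial markers summed to 343 CPM against 452 CPM, with 4 of 14 at 0, and 9 markers of dopaminergic, noradrenergic and cholinergic neurons to 1.96 CPM against 2.94 CPM. The part of such cells in the results was not tested.

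To see how the genes ran through the limit of the set, levels were summed over blocks of 30 ranks. Syt2 had 44.9, 31.2 and 22.2 CPM in the 3 blocks of members, 14.2 CPM at ranks 91 to 120, 24.1 CPM at ranks 121 to 150, 8.06 CPM at ranks 151 to 300 and 2.54 CPM beyond. Tpbg had 81.7 CPM in the last block of members and 83.9 CPM in the first block outside. Slc17a8 had 549, 535 and 457 CPM inside and 325 CPM at ranks 91 to 120. On the low side, Asb4 had 25.9 CPM at ranks 61 to 90 and 88.4 CPM at ranks 91 to 120, and Prph 8.27 and 24.4 CPM. Nos1 did not follow the rank. It had 13.1 CPM in the 30 highest-scoring members, 71.8 and 95.7 CPM in the next 2 blocks, and 88.0 CPM at ranks 151 to 300.

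**Figure D3:**
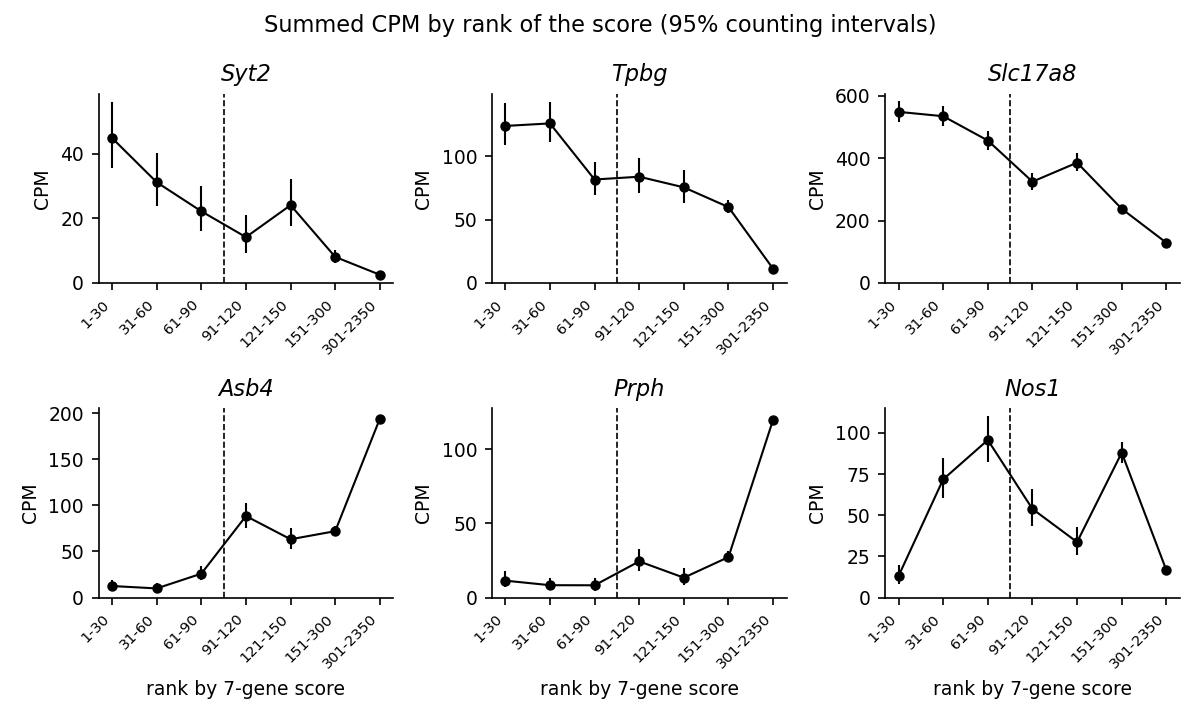
Summed CPM (y axes, from 0) of 6 genes by rank of the 7-gene score (x axes), with 95% counting intervals and a dashed line at the limit of the set. Syt2, Tpbg and Slc17a8 are higher in each block of members than beyond rank 300, and Asb4 and Prph are lower, while Nos1 has 13.1 CPM at ranks 1 to 30 and 95.7 CPM at ranks 61 to 90.

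Over the 2260 cells outside the set, the genes whose level followed the score most closely were Pcdh7 (Pearson r = 0.52), Adcy2 (0.46), Pcdh10 (0.44), Plxna4 (0.42), Kcnab1 (0.42), Epha5 (0.42), Grin2a (0.41), Tpbg (0.41), Dpp10 (0.40) and Nrxn3 (0.39). These correlations are across cells of 1 table that share libraries and depth and are given as a description. For Pcdh7 the value was 0.54 in barcode set 1 and 0.50 in set 2. Among the 14 leading genes, Stxbp6 (0.10) and Vill (0.15) had the lowest values. Within the 90 members the values differed from these, with 0.47 for Vill, 0.25 for Pcdh7, -0.18 for Plxna4 and -0.22 for Adcy2.

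Most members also lay together on genes outside the rule, which is a description and no independent support. The paper lists Rspo3, Foxa1, Proser2 and Pvrl3 for a cluster that it found in these same cells. The clustering here followed its settings, so such a grouping could be foreseen. On principal components of the 2000 most variable genes, with the 7 choosing genes removed, a mean of 54.6% of the 20 nearest neighbours of a member were members (median 60%), against 3.83% of all cells and 1.58% for the other cells. Graph clustering on the same components gave 14 clusters, and 1 of them, with 134 cells, held 75 of the 90 members. The remaining 59 cells of that cluster had a median score of 1.21. In these 59 cells Syt2 had 16.4 CPM, Tpbg 52.4 CPM, Ntng1 87.9 CPM and Slc17a8 431 CPM, beside 35.4, 104, 141 and 544 CPM in the 75 members of the cluster and 2.98, 15.2, 22.6 and 134 CPM in the other cells outside it. For these 4 genes the 59 cells lay between both. They did not for Slc44a5, with 20.6 CPM against 18.6 CPM in the members of the cluster, for Nos1 (75.2 against 67.3 CPM) or for Hcrtr2 (43.9 against 41.8 CPM).

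The 15 members outside that cluster lay in 6 others. Barcode set 1 gave 10 of these 15, but 16 of the 75 inside. They had a median score of 2.02, close to the limit, and a median of 59313 UMIs. Their summed Tpbg level was 144 CPM (median cell 141 CPM, and 92.4 CPM inside the cluster). Ntng1 had 140 CPM, but a median cell of 61.6 CPM outside and 113 CPM inside. Syt2 had 16.0 CPM against 35.4 CPM and Cbln2 57.2 CPM against 140 CPM. Vill (4.57 CPM against 20.9 CPM) and Iqgap2 (6.86 CPM against 23.8 CPM) rest on 4 and 6 UMIs outside. Dlk1, an imprinted gene, had 716 CPM in them and 121 CPM in the members inside, and Peg10 82.3 and 18.1 CPM. The members' share of the cluster depended on the components. They made up 56% of its 134 cells, but 33.6% of a cluster of 223 cells that held 75 of them with 30 components, and 35.8% of a cluster of 179 cells that held 64 of them with components 6 and 7 kept.

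The set was then set beside 2 other cell sets, each chosen in the same way as 90 cells by its own genes. The Hs3st5 Hcrtr2 Cbln2 set shared 9 cells with the members and the Maf Nos1 Crh set 3, and these cells were left out of the compared groups (81 and 87 cells). Against the former, 155 of 11292 genes (1.37%) were higher and 183 (1.62%) lower in the members. Against the latter, 159 of 11365 genes (1.4%) were higher and 199 (1.75%) lower. Slc17a8 was not called against either, with 412 and 372 CPM in the compared sets and 513 CPM in the members, so high VGLUT3 is not particular to the members. Low levels were shared too. Asb4 had 16.2 CPM in the members, higher than the 4.19 CPM of the former set, and was not called against the latter (8.55 CPM). Fam19a2 was called against neither, and Cxcl14 not against the former. Arhgap36, Prph and Zar1 were not called against the latter, where Prkcq and Hspb1 were under the minimum. The remaining leading lower genes were called lower.

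Relative to the Hs3st5 Hcrtr2 Cbln2 set, the largest higher calls among genes with at least 100 observed or expected UMIs were Sst, encoding somatostatin (18.0 CPM against 0.399 CPM, log2 ratio 5.49, 3.60 to 8.56, with 2 UMIs in the compared set), Rprm (88.9 against 2.79 CPM), RP23-291B1.2 (43.5 against 1.40 CPM) and Ret, the receptor tyrosine kinase for GDNF family ligands (44.2 against 2.79 CPM). A Ret UMI was present in 60 of 90 members and in 10 of 81 cells of the compared set. Sst came from 14 members, with a highest level of 391 CPM, and is no mark of the members, since against all other cells they had 18.0 CPM and 28.5 CPM (log2 ratio -0.67). Ret (35.4 CPM in all other cells, log2 ratio 0.32) and Rprm (66.7 CPM, 0.41) were not called against all other cells either. RP23-291B1.2 was called higher there (14.4 CPM, 1.59). Tpbg was higher as well (110 against 7.39 CPM), as were Ntng1 (141 against 33.5 CPM) and Maf (59.7 against 13.8 CPM). Under the same minimum the largest lower calls were Nrp2 (1.25 against 30.9 CPM), Sertm1, Rerg, Grm5 (1.96 against 24.6 CPM) and Crct1 (9.97 against 98.8 CPM).

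Relative to the Maf Nos1 Crh set, Syt2 had the largest higher call among genes with at least 100 observed or expected UMIs (32.4 against 1.86 CPM, log2 ratio 4.12, 3.21 to 5.21). It was followed by Dlk1 (214 against 18.0 CPM), Hs3st4 (29.7 against 2.79 CPM), Pdlim5 (24.4 against 2.97 CPM) and Rbfox1 (161 against 25.8 CPM). Dlk1 was uneven over the members, with a median of 16.0 CPM and a highest cell of 2427 CPM. Lower in the members under the same minimum, apart from genes that chose the compared set, were Cadps2 (0.178 against 18.4 CPM, 1 UMI, log2 ratio -6.69, -12.01 to -4.18), which encodes a factor of dense-core vesicle release, Rspo1 (0.890 against 26.8 CPM), C1ql2 (0.712 against 19.9 CPM) and Synm (4.63 against 66.5 CPM). Ntng1 (141 against 133 CPM), Ret, Stxbp6, Slc44a5, Iqgap2 and Sema3e were not called. Ntng1 and Ret were thus called higher against the Hs3st5 Hcrtr2 Cbln2 set alone, while Syt2, Tpbg and Ano3 were called higher against both. Kcnj12 (29.2 against 20.8 CPM), Iqgap2 (21.2 against 12.2 CPM) and Fam163a (21.5 against 10.4 CPM) were not called against the Hs3st5 Hcrtr2 Cbln2 set. Unc5c and Ndst4 were not called against it either. Grin2a (87.4 against 85.1 CPM), Epha5 (263 against 202 CPM), Dkk3 and Ndst4 were not called against the Maf Nos1 Crh set. Such levels are not particular to the members.

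**Figure D4:**
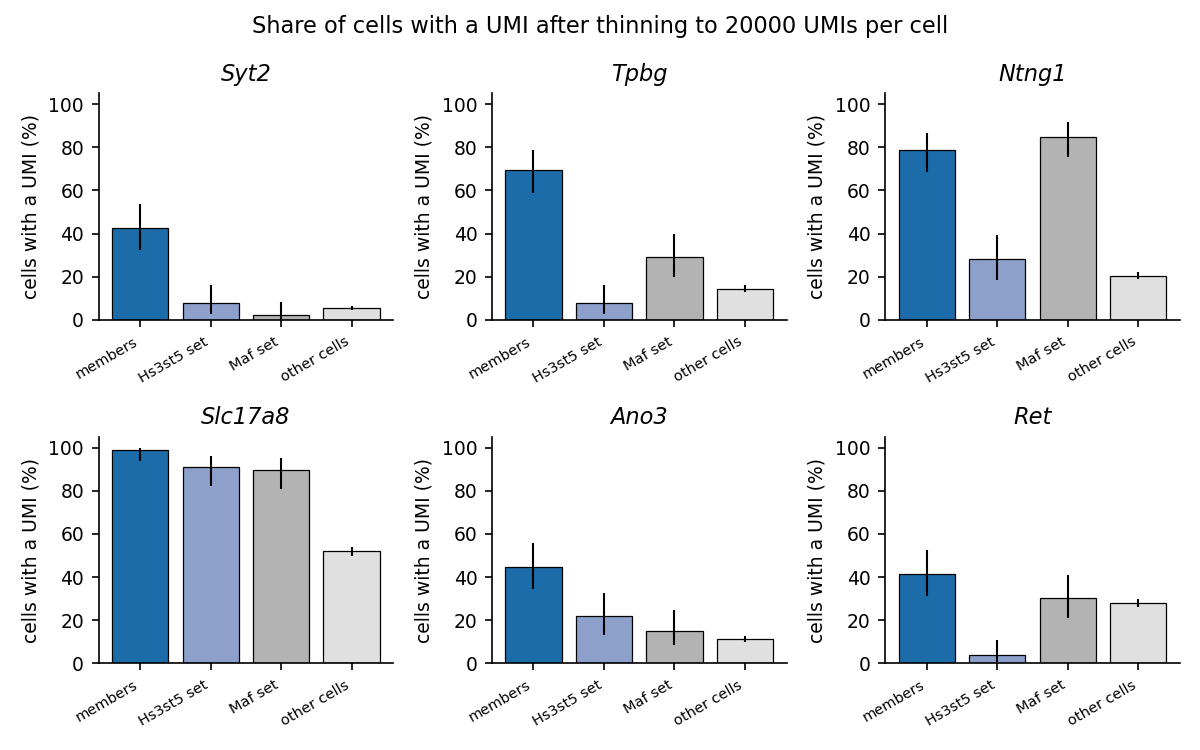
Share of cells with a UMI after thinning to 20000 UMIs per cell (y axes, %), for 6 genes in the members, the 2 compared sets without shared cells, and all cells outside the members; bars with exact 95% binomial intervals. Syt2, Tpbg and Ano3 are most frequent in the members (42.7%, 69.7% and 44.9%), Ntng1 reaches 84.9% in the Maf Nos1 Crh set, and Slc17a8 is frequent in all 3 sets.

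The manually sorted cells were not used by the rule, and genes that it did not use were measured in them from read counts, in 8 groups of 6 to 10 cells. Cells of the ventromedial group had 2303574 to 5311583 reads each, and all 70 cells 756872 to 7664103. Over the 8 Sert::cre cells of the ventromedial dorsal raphe Syt2 ranged from 0 to 94.2 CPM with a median of 33.6 CPM (16.8 to 50.4 CPM without 1 of the cells) and reads in 5 cells, and its median was 0 in each of the other 7 groups. Tpbg had a median of 85.4 CPM (35.3 to 136 CPM without 1 of the cells) and a highest cell of 529 CPM in the ventromedial group, with reads in 5 of 8 cells. Its only other median above 0 was that of the Npy2r::cre caudal cells, 25.3 CPM. Slc17a8 had a ventromedial median of 287 CPM with a highest cell of 447 CPM, followed by P2ry1::cre caudal with 128 CPM and Sert::cre caudal with 112 CPM, while the dorsolateral and dorsomedial medians were 0. Rbfox1 was found in 8 of 8 ventromedial cells with a median of 164 CPM, and the next highest median was 35.3 CPM. Pcdh7 was likewise found in 8 of 8 (24.5 to 257 CPM, median 120 CPM). Pcdh7 was also high in Npy2r::cre rostral cells, with a median of 113 CPM. For each of these 5 genes the ventromedial range overlapped that of other groups. In the paper the ventromedial libraries as a whole did not map to the cluster for which it lists Rspo3, Foxa1 and Proser2. From marker genes and other evidence it still proposes a ventromedial bias for that cluster. Slc17a8, Pcdh7 and Rbfox1 had 412, 115 and 70.1 CPM in the droplet cells of the Hs3st5 Hcrtr2 Cbln2 set. Their levels therefore do not place the ventromedial cells in the set of this report.

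The ventromedial cells were of 2 ages, 4 cells of postnatal day 63 and 4 of day 90. Tpbg had reads in 1 of 4 cells at day 63 (median 0) and in 4 of 4 at day 90 (median 146 CPM). Slc17a8 had reads in 2 of 4 cells at day 63 and 4 of 4 at day 90, with medians of 160 and 289 CPM. The medians of Syt2 were 25.2 and 34.3 CPM and those of Pcdh7 121 and 120 CPM, while Rbfox1 had 193 CPM at day 63 and 60.7 CPM at day 90. The Sert::cre dorsolateral and dorsomedial cells were of the same ages. At both ages their Syt2 and Tpbg medians were 0, and their Slc17a8, Rbfox1 and Pcdh7 medians lay below those of the ventromedial cells. The part of age in these levels was not tested.

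**Figure D5:**
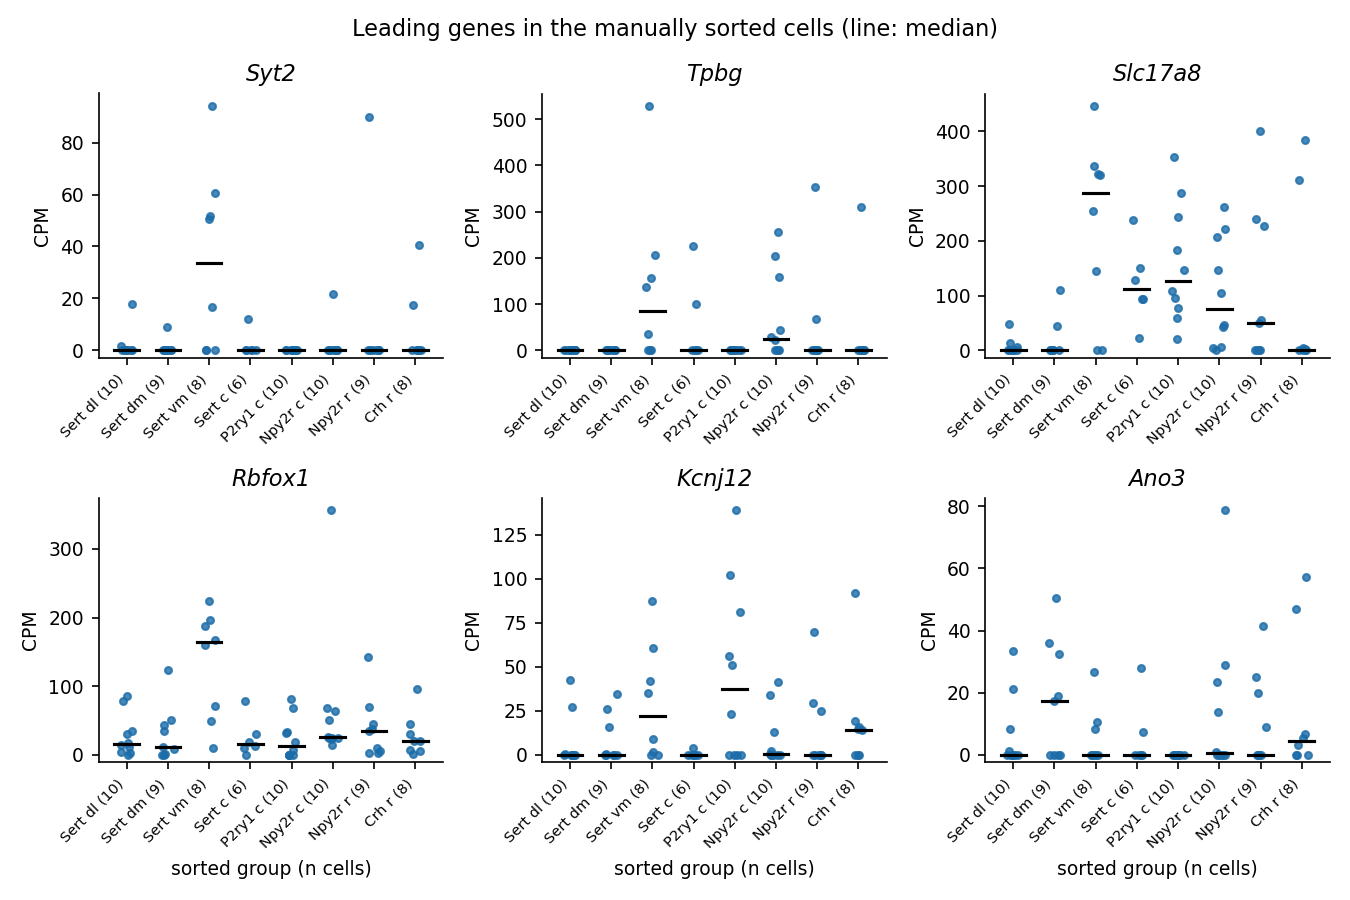
CPM per cell (y axes, from 0) of 6 leading genes that the rule did not use, in the 70 manually sorted cells by sorted group (x axes; dl, dm, vm, c and r are the dorsolateral, dorsomedial, ventromedial, caudal and rostral dorsal raphe); lines are medians. Syt2, Tpbg, Slc17a8 and Rbfox1 have ventromedial medians of 33.6, 85.4, 287 and 164 CPM, while the medians of Kcnj12 (37.3 CPM) and Ano3 (17.4 CPM) are highest in P2ry1::cre caudal and dorsomedial cells.

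Vill (23.6 CPM), Ntng1 (66.1 CPM) and Fam163a (27.9 CPM) also had their highest median in the ventromedial cells. The other leading genes did not follow this order. Kcnj12 had a median of 37.3 CPM in P2ry1::cre caudal cells and 22.1 CPM in the ventromedial cells (8.85 to 35.3 CPM without 1 of the cells), which was 38.7 CPM at day 63 and 4.42 CPM at day 90. Without 1 of its cells the P2ry1::cre median was 23.5 to 51.1 CPM. Ano3, Sema3e, Iqgap2, Stxbp6 and Slc44a5 had a ventromedial median of 0. Ano3 had its highest median, 17.4 CPM (8.71 to 18.3 CPM without 1 of the cells), in the dorsomedial cells. Slc44a5 had it in the Crh::cre rostral cells (8.70 CPM, and 0.706 to 16.7 CPM without 1 of the cells). Stxbp6 had a median of 6.34 CPM in the Sert::cre caudal cells (6.28 to 6.4 CPM without 1 of the cells). In the P2ry1::cre caudal cells it had 6.12 CPM (4.54 to 7.7 CPM), so the order of these groups can turn on 1 cell.

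The 7-gene mean z was also computed over the sorted cells. It rests on the genes that chose the members, so it is given as a description and supports nothing on where they lie. The group medians were 0.75 for ventromedial Sert::cre (range -0.50 to 2.08), 0.28 for Npy2r::cre rostral (-0.34 to 1.76) and -0.26 for Npy2r::cre caudal (-0.60 to 0.53). They were -0.31 for Crh::cre rostral (-0.49 to 1.39) and -0.32 for P2ry1::cre caudal (-0.58 to -0.03). In the remaining Sert::cre groups they were -0.37 for dorsomedial (-0.62 to 1.86), -0.44 for caudal (-0.65 to -0.24) and -0.54 for dorsolateral (-0.65 to 0.39). The ventromedial range overlapped that of each of the other 7 groups. Over all 70 cells, as a description of cells that share groups and drivers, the level of the 14 leading genes and this score had Pearson r values of 0.09 (Stxbp6) to 0.62 (Fam163a) and Spearman rank correlations of 0.07 (Iqgap2) to 0.56 (Pcdh7).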

How the data were processed

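The authors sequenced 10X Genomics (v3 kit) libraries of sorted neurons and SMART-Seq libraries of 70 manually sorted cells. The submitters' notes name Cell Ranger 3.0.2, STAR 2.5.4, R 3.5.3 and the mm10 build. Both deposited tables hold counts per gene and cell, UMIs for the droplet cells (filtered by the authors) and reads without molecular identifiers for the manual cells. The members and the gene lists were chosen with earlier results of these data known.

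Counts were summed over cells and scaled to CPM. Droplet cells had 12320 to 134079 UMIs. The droplet table counts as 1 sample, and each manual sample is 1 cell with no animal named, so no test between groups was made. Intervals are exact Poisson or binomial. The text names the 15 highest and 12 lowest called genes with at least 100 observed or expected UMIs, up to 4 called genes of a list (or the most abundant 2), 24 further genes, the 5 largest calls each way against each compared set at the same UMI minimum, and the 10 genes that best followed the score. Predicted genes (Gm, Rik) were left out, and a few genes that the rule names are not reported here and were not replaced. Genes outside this rule (further members of a list, Dlk1 and others beside a comparison or the clusters) were chosen after their values were seen.

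Doublets were called with Scrublet in scanpy 1.11.5 (14 cells) and kept. Clusters used Seurat 5.3.0 in R 4.3.3 with components 1 to 5 and 8 to 50 and a resolution of 0.9. Scaling by TMM factors used edgeR 4.0.16. The old and new symbols of Pvrl3 were summed in the manual table. Each table was scaled separately, and the ratio step was tested on simulated data. Alternatives were other members, thinning, filters, weights, scaling and comparison cells.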

Additional observations from a re-analysis of the deposited data

Results flagged for a closer look

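In the groups of manually sorted cells, 22 ranges (the score in 8 groups and the 14 leading genes in the ventromedial group) were examined for a cell standing apart by Dixon's criterion, and 3 met it. Chance meets it in about 1 in 20 groups of spread-out values, but a gene with reads in a single cell always meets it, and the score rests on the choosing genes, so these are given as values alone. In the dorsolateral Sert::cre group (10 cells) 1 cell had a score of 0.39, while the group median was -0.54. In the ventromedial group (8 cells) the other 2 were single cells. Sema3e was listed at 35.6 CPM in 1 cell and at 0 in the rest, and Stxbp6 at 6.44 CPM in 1 cell and at 0 in the rest.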

How the results depend on the processing

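Under 19 alternatives the 25 leading genes kept their direction, with log2 ratios of at least 1.29 for the higher and at most -1.99 for the lower genes. Their calls were not all kept. At a minimum of 10 CPM, which removes low genes from those compared, 5 of the 14 higher genes were still called. It was 13 without Mctp1 in the score or with the members in the cluster alone, and 10 of the 11 lower genes without Rspo3, Fam210b or Foxa1. Leaving out each choosing gene in turn kept 77 to 84 of the 90 members, and thinning kept 71. The counts of higher and lower genes (74 and 335) became 214 and 750 in barcode set 1 alone, which needs agreement in no second set, 121 higher in set 2 alone, 274 and 546 with no minimum level, and 30 and 129 at a minimum of 10 CPM. At 10 CPM, chosen after seeing the data, the comparison with the Hs3st5 Hcrtr2 Cbln2 set gave 59 higher and 75 lower genes and that with the Maf Nos1 Crh set 56 and 74, since fewer genes were tested. The other alternatives, including the 75 members of the cluster alone (added after seeing the data), left these counts within 1.5 times. Over the gene lists, 817 counts of higher or lower genes stayed within 1.5 times and 95 moved further. The share of neighbours that were members was 59.1% with 10 neighbours, 48.2% with 50 and 57.3% with the choosing genes kept. The median score of the ventromedial cells, a description from the choosing genes, was 0.61 to 1.01 over 10 alternatives. Medians of sorted cells without each cell in turn or by age were added after seeing the data. Crh moved from a log2 ratio of -0.71 to -2.35 without Proser2 in the score, and Nos1 to 0.92 with 60 members; the cause was not tested. No paired analysis was possible because no test was made and the replicate numbers only name cells. Apart from the setting with no minimum level, genes under the 2 CPM minimum were not called, since their counts over the members are small.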
